A study of Mus musculus with 229 samples.

Results

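The cycling tumour cells at day 25 are the cells of a mouse glioblastoma library in which genes of cell division were detected. A cell belonged to them when at least 4 of 8 division genes had a UMI (a unique molecular identifier, 1 captured RNA molecule). The 8 genes were Top2a, Mki67, Cenpf, Cenpa, Ube2c, Birc5, Ccnb1 and Cdk1. A second condition allowed a UMI for at most 1 of 11 myeloid and endothelial genes, which were C1qa, C1qb, C1qc, Csf1r, Tyrobp, Fcer1g, Ctss, Aif1, Cldn5, Flt1 and Pecam1. Of the 4955 cells of the library, 4468 met the second condition. Of these, 1933 were cycling cells and 2535, called the other cells here, had fewer than 4 of the 8 genes. The 4 droplet libraries of the series hold 15008 cells in all.

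The dpi 25 tumour library was made by Drop-seq from a mouse glioblastoma of the cerebral cortex region, digested and treated with red blood cell lysis, with no sort given. It is set beside a 10x library of such a tumour at dpi 35 and beside Drop-seq libraries of GFP+ cells sorted without 7-AAD, a dye of dead cells, from PDGFRa-GFP cortex of postnatal days 1 to 3 and hGFAP-GFP cortex of postnatal days 5 to 6. In the reporter mice GFP follows the Pdgfra promoter, active in oligodendrocyte precursor cells (OPCs), or a human GFAP promoter, active in astrocytes and neural progenitors. The labels do not expand dpi, give no genotype beyond the word GBM and no driver gene, strain or number of animals for the tumours, and give 6796 cells for dpi 25 where the deposited table holds 4955. Each group is 1 library, so no difference below has a replicate check and none was tested. Every interval of a share, level or ratio is an exact 95% interval that covers counting error alone. The interval of a list median instead reflects the spread among the genes of the list.

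A dividing cell passes in turn through G1, S phase, in which DNA is copied, G2, and mitosis, in which the copies are parted. Cyclins switch on cyclin-dependent kinases (CDKs) at each step, and CDK inhibitors hold them back. RNA of the replication genes is made first, through E2F factors at their promoters, and RNA of the mitotic genes later, through the CHR and CCAAT elements bound by the MuvB complex with B-Myb, by FOXM1 and by NF-Y. In glioma, cells that resemble OPCs are known to divide.

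The 8 genes of the rule belong to the mitotic wave, and many promoters of this wave hold its elements. The 150 bases before the gene start are given 5′ to 3′ on the gene's strand, from the RefSeq promoter table of build GRCm38.p6, for 6 mitotic genes and 2 replication genes, chosen because they hold the motifs. Capitals mark CHR (TTTGAA or TTCGAA), the CCAAT box and E2F (TTTCCCGC, TTTCGCGC, TTTGCCGC or TTTGGCGC) on either strand. Cdk1 (chr10:69352913-69353062, minus strand) encodes the mitotic kinase, Ube2c (chr2:164769779-164769928, plus strand) a ubiquitin-conjugating enzyme of mitotic exit, and Ccnf (chr17:24251410-24251559, minus strand) cyclin F. Kif11 (chr19:37376232-37376381, plus strand) encodes a spindle motor, Cdc20 (chr4:118437344-118437493, minus strand) an activator of the anaphase-promoting complex, and Depdc1a (chr3:159495283-159495432, plus strand) a protein of mitotic progression. Mcm6 (chr1:128359706-128359855, minus strand) and Mcm5 (chr8:75109359-75109508, plus strand) encode subunits of the helicase that opens DNA for copying.
Cdk1: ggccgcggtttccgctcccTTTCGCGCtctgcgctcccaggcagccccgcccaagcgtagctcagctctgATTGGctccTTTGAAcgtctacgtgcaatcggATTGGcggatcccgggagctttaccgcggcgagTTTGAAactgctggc
Ube2c: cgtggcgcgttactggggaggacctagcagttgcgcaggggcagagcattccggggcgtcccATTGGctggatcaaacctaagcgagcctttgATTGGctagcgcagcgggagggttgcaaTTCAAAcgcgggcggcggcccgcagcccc
Ccnf: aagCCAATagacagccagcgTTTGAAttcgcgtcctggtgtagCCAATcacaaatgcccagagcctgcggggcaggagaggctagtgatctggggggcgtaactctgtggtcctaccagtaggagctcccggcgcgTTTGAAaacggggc
Kif11: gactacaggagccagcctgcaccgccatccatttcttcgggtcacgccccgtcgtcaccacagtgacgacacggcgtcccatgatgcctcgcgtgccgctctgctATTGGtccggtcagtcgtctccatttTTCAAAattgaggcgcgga
Cdc20: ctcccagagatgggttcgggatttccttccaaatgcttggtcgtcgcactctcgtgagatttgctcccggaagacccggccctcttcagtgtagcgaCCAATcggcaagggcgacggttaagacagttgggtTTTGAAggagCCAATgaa
Depdc1a: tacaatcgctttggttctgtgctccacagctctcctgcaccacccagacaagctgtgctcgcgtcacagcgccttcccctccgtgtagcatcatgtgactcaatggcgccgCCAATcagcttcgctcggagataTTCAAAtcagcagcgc
Mcm6: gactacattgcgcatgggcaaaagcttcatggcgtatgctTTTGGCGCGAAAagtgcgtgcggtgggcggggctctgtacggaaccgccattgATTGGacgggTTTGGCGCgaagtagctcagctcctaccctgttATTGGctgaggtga
Mcm5: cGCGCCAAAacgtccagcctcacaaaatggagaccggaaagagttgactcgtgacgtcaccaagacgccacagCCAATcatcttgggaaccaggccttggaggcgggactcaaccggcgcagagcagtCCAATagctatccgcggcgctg

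In the mitotic sequences the CHR lies close to the start, at -15 in Cdk1, -29 in Ube2c, -14 in Ccnf, -19 in Kif11, -18 in Cdc20 and -16 in Depdc1a, counted from the motif's first base to the gene start. Cdk1 has a further CHR at -71 and an E2F motif at -131, and Ccnf has a further CHR at -130. Mcm6 holds 3 E2F motifs, at -110, -106 and -47, of which the first 2 overlap, and Mcm5 holds 1 at -149. Neither replication window has a CHR in these bases.

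Over whole windows of 250 bases before to 50 after the start, 71 of the 89 genes of the mitotic lists had an entry, with 78 windows, as did 34 of the 42 replication genes, with 39 windows. CHR was in 64.1% of the mitotic windows and 15.4% of the replication windows, against 19.2% of all 32851 windows of the table. Within 50 bases of the start the shares were 52.6%, 2.56% and 5.31%. CCAAT was in 75.6% of mitotic and 58.97% of replication windows, against 37.4% of all. The E2F motif had the reverse order, with 7.69% of mitotic and 30.8% of replication windows, against 2.26% of all. CHR and CCAAT stood together in 53.8% of mitotic windows, 12.8% of replication windows and 7.52% of all windows. Birc5, a rule gene that encodes survivin, had none of the 3 motifs in the 150 bases before its start. The rule genes Cenpf, Cenpa and Ccnb1 had CCAAT but no CHR in those bases. Over the whole windows 6 of the 8 rule genes had a CHR, 5 of them within 50 bases of the start. In the mitotic windows CHR was most frequent 0 to 24 bases after the start (20.5%), outside the bases printed above. A match describes letters in a window and does not show that a factor binds there.

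**Figure D1:**
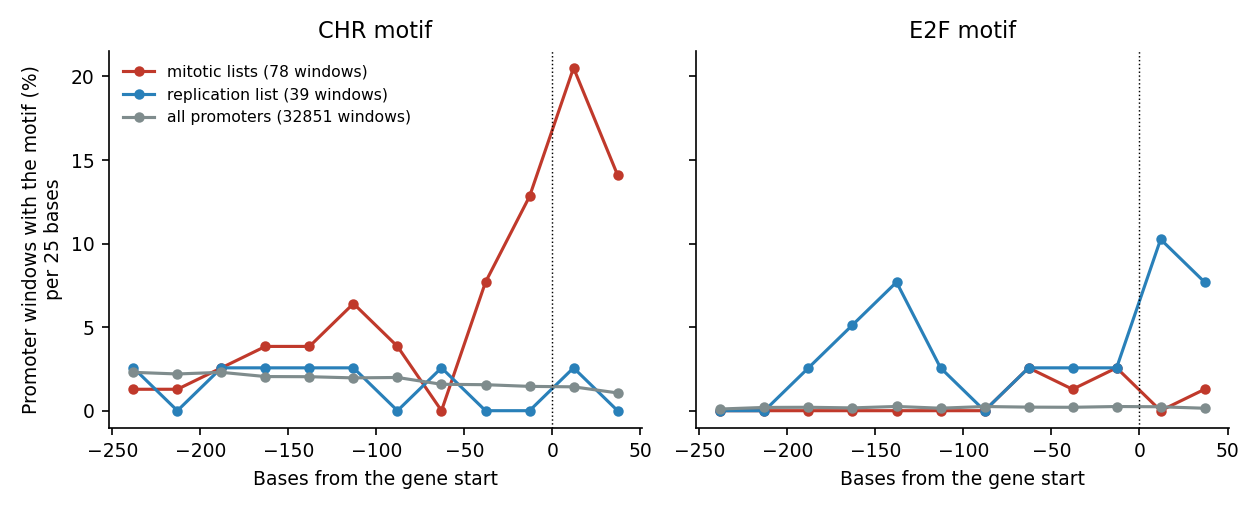
Share of promoter windows (y axis, %) with a CHR (left) or E2F (right) motif starting in each stretch of 25 bases, by distance from the gene start in bases (x axis), for the mitotic lists, the replication list and all promoters. CHR in the mitotic windows gathers around the start, and E2F is most frequent in the replication windows.

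Of the cells that met the second condition, 43.3% were cycling (95% Clopper-Pearson interval 41.8% to 44.7%). The division genes were spread over cells without a gap. From none to all 8 rule genes the numbers of cells were 893, 712, 498, 432, 405, 375, 363, 399 and 391. The rule cuts this range, and 432 cells with 3 rule genes and 405 cells with 4 lie next to the cut. Detection depends on depth, so these counts do not show whether the cycling cells form a separate cluster. No clustering was run. Those with 4 had 616 CPM of Cenpf, a kinetochore protein, and 171 CPM of Ccnb1, cyclin B1, while those with 3 had 375 CPM of Cenpf and 108 CPM of Ccnb1. CPM is the summed UMIs of a gene scaled to a total of 1000000 UMIs over the same group of cells, so a few cells with much RNA and many cells with little cannot be told apart.

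Cells with more UMIs pass such a rule more easily. The median depth was 2449 UMIs in cycling cells and 1815 in the other cells, and it ran over the library from 1714 UMIs in cells with no rule gene to 3563 in cells with all 8. When every cell was first thinned to 1000 UMIs, 1222 of 4553 cells (26.8%, interval 25.6% to 28.2%) met the rule. The part of depth in the number of members was not tested further.

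**Figure D2:**
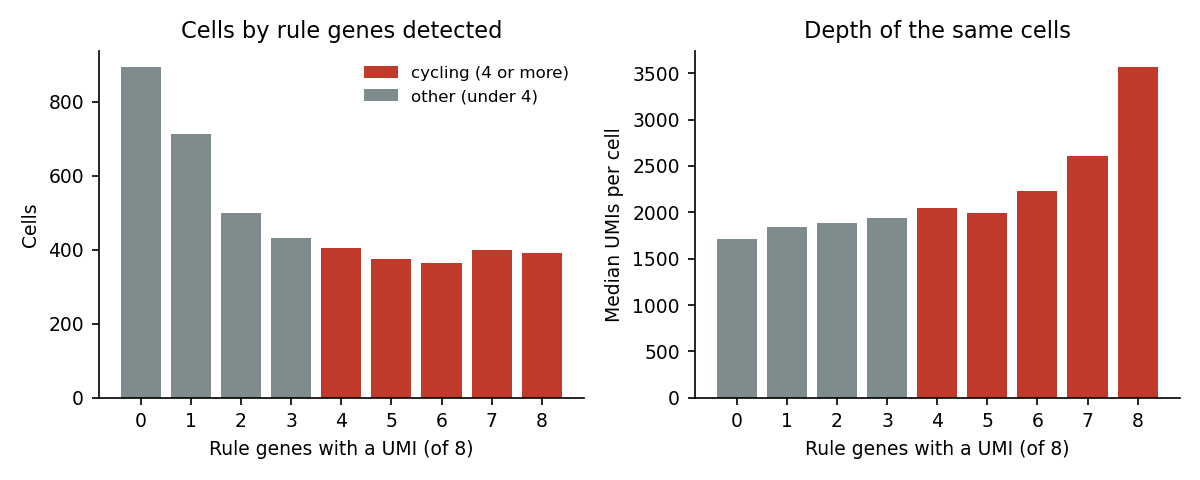
Number of cells (left) and median UMIs per cell (right) by the number of the 8 rule genes with a UMI, dpi 25 library, cells that met the second condition. Cells fall in an unbroken range from 893 with none to 391 with all 8, and depth is greatest, 3563 UMIs, at 8.

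The label of the cells was checked against markers. Thinned to 1000 UMIs, Top2a, which untangles DNA, had a UMI in 56.4% of cycling cells and 13.7% of the other cells. Mki67, the Ki-67 proliferation antigen, had one in 51.7% and 11.4%, Cenpf in 68.1% and 12.6%, and Ube2c in 50.1% and 5.29%. Unthinned shares were 78.2% and 20.99% for Top2a, 79.6% and 19.1% for Mki67, 88.3% and 19.9% for Cenpf, and 74.1% and 9.51% for Ube2c. All these genes were used by the rule, so the values describe the choice and test nothing.

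The lineage of the cells was read from genes outside the rule. At least 2 genes of the OPC list had a UMI in 1882 cycling cells (97.4%) and in 2387 of the other cells (94.2%). Of the 487 cells that failed the second condition, mostly myeloid by their C1qa (1947 CPM) and Ctss (3612 CPM) and with a median of 2263 UMIs, 25.1% had 2. Thinned, Pdgfra, the receptor that marks OPCs, had a UMI in 25.5% of cycling cells (interval 23.6% to 27.5%) and 24.8% of the other cells (23.1% to 26.5%), against 6.37% of the cells that failed the second condition. Olig2, a transcription factor of the oligodendrocyte lineage, had shares of 39.8% and 38.97%, against 5.34%, and unthinned shares of 68.8% and 55.8%, against 12.5%. Unthinned shares of Pdgfra were 50.6% and 38.9%, against 11.1%. No genetic mark separates tumour from host OPCs here, so the name tumour cell rests on the library.

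RNA of other cell types was also counted. Markers of T and NK cells summed to 2.33 CPM in cycling cells and 2.75 CPM in the other cells, with Cd3e, Cd3d and Cd3g at 0 UMIs in both, which allows up to 0.582 CPM in cycling cells and 0.588 CPM in the other cells. Myeloid markers outside the rule summed to 73.0 and 85.9 CPM, against 10336 CPM in the cells that failed the second condition. Mural and fibroblast markers summed to 41.1 CPM in cycling cells and 207 CPM in the other cells, and astrocyte markers to 704 and 1160 CPM. Myelinating oligodendrocyte genes summed to 698 CPM in cycling cells and 3097 CPM in the other cells. Such RNA was spread over many cells, since 2 or more astrocyte genes had a UMI in 44.4% of cycling cells and 45.5% of the other cells, and 2 or more myelinating genes in 35.3% and 30.8%. Haemoglobin and other erythroid RNA summed to 401 CPM in cycling cells and 243 CPM in the other cells, but 85.2% of it lay in 3 cycling cells. Without those 3 cells it was 59.5 CPM, against 90.3 CPM in the other cells without their own 3. No doublet caller was run. Leaving out the deepest 5% of cells gave 41.4% cycling cells.

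Genes of mitosis stood higher in cycling cells than in the other cells. All 85 measured genes of the mitotic lists (at least 20 summed UMIs) had more CPM in cycling cells, 74 of them at least 2-fold, with a median log2 ratio of 2.33. Over all 12235 genes so measured, 36.2% were higher, 2.7% at least 2-fold higher and 7.12% at least 2-fold lower, and the median log2 ratio was -0.12. Among the 8655 genes with at least 100 UMIs, 41% were higher, 2.88% at least 2-fold higher and 2.05% at least 2-fold lower. The cells were chosen by RNA of the 8 rule genes in this same contrast, so these counts describe that choice. Summed over the lists, mitotic RNA was 24180 CPM in cycling cells and 7119 CPM in the other cells. Per 1000 UMIs a cycling cell had a median of 24 mitotic UMIs (quartiles 18 and 30), and an other cell had 6 (quartiles 3 and 10).

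Among kinases and cyclins, 18 of 18 were at least 2-fold higher, with a median log2 ratio of 2.64. Ccnf, cyclin F, had the largest ratio of the list, with 25.4 CPM in cycling cells and 2.16 CPM in the other cells (log2 ratio 3.56, interval 2.67 to 4.60). Plk1, the polo-like kinase, had 145 and 12.9 CPM (3.49), Aurka, a kinase of spindle poles, 114 and 10.0 CPM (3.505), and Nek2, a centrosome kinase, 54.9 and 4.71 CPM (3.54). At the low end stood Plk4, the kinase that starts centriole copying, with 109 and 43.1 CPM (1.34). Ccnb1, a cyclin of mitosis that belongs to the rule and not to this list, had 526 CPM in cycling cells and 33.1 CPM in the other cells (3.99, interval 3.76 to 4.22).

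The 28 spindle and cytokinesis genes had a median of 2.55, and 25 were at least 2-fold higher. Kif20a, a motor of cytokinesis, had 98.97 CPM in cycling cells and 10.0 CPM in the other cells (3.31), and Ect2, which starts the cleavage furrow, had 95.1 and 10.2 CPM (3.22). The 3 under 2-fold were the tubulins Tuba1b (0.68) and Tubb5 (0.66) and the microtubule regulator Stmn1 (0.74), which non-dividing cells also use. Of 27 measured kinetochore and chromosome genes, 23 were at least 2-fold higher, with a median of 1.82. Cenpe, a kinetochore motor, had 723 and 89.8 CPM (3.01), and the condensin subunit Smc4 had 2148 and 609 CPM (1.82). The 4 under 2-fold were the centromere genes Cenpw (0.99), Cenph (0.94) and Cenpk (0.84) and the kinetochore gene Zwint, with 152 and 144 CPM (0.08).

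Genes of mitotic exit had a median of 1.44 over 13, and 9 were at least 2-fold higher. The activator Cdc20 had 750 CPM in cycling cells and 98.0 CPM in the other cells (2.94), and the separase gene Espl1 had 80.0 and 11.4 CPM (2.81). Core subunits of the complex that Cdc20 activates differed less, with 58.02 and 35.7 CPM for Cdc27 (0.70), 179 and 155 CPM for Anapc11 (0.21) and 89.5 and 81.2 CPM for Anapc5 (0.14).

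Several of the largest ratios belonged to genes outside the cycle lists. These were Depdc1a (78.4 CPM in cycling cells and 6.08 CPM in the other cells, 3.69), Arhgef39, a guanine nucleotide exchange factor (53.9 and 4.90 CPM, 3.46), Cep55, a protein of the last step of cytokinesis (89.9 and 8.24 CPM, 3.45), and Bora, an activator of Aurora A (69.7 and 7.45 CPM, 3.22). They continued with Gas2l3 (3.18), Fam64a (3.02), Cenpl (2.99), the shugoshin Sgol2 (2.88), Cep89 (2.80), the importin Kpna2 (2.79), Fam83d (2.72) and Prr11 (2.70). Most encode proteins known from mitosis that the lists had left out.

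**Figure D3:**
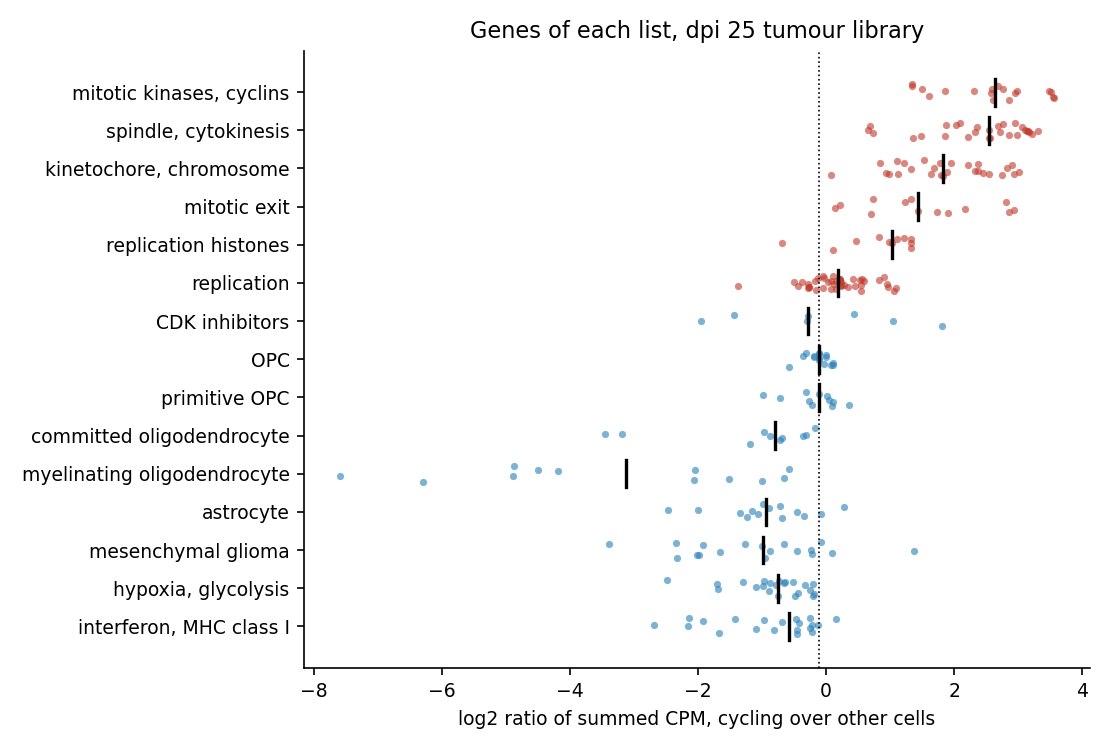
Log2 ratio of summed CPM, cycling over other cells (x axis), for each gene with at least 20 summed UMIs (points) in 15 lists (y axis), with the list median as a bar and the median of all genes as a dotted line. The mitotic lists lie right of 0, the replication and OPC lists around it, and the myelin, hypoxia and astrocyte lists left of it.

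Replication RNA differed far less between the groups than mitotic RNA. Of 42 replication genes 28 were higher in cycling cells and 14 lower, and 2 were at least 2-fold higher. The median was 0.18 on the log2 scale (interval 0.03 to 0.28, over the genes of the list). Over all genes 36.2% were higher and 2.7% at least 2-fold higher, with a median of -0.12. The replication list summed to 4855 CPM in cycling cells and 3979 CPM in the other cells. Rrm2, the ribonucleotide reductase subunit, had 460 CPM in cycling cells and 219 CPM in the other cells (1.07). Pcna, the sliding clamp of the polymerases, had 464 and 394 CPM (0.24). The helicase genes lay on both sides of 0, with 50.1 and 49.0 CPM for Mcm5 (0.03), 79.0 and 96.5 CPM for Mcm6 (-0.29) and 61.7 and 83.3 CPM for Mcm4 (-0.43). Ung, a uracil glycosylase, was 2-fold lower, with 12.2 and 31.8 CPM (-1.38). The direction of this list turns with the rule, since at 5 or more rule genes the median was -0.07.

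Replication UMIs were also frequent in single cells of the other group. Per 1000 UMIs, 613 cycling cells (31.7%) and 757 of the other cells (29.9%) had 6 or more replication UMIs. At the other end, 462 cycling cells (23.9%) and 1244 of the other cells (49.1%) had 2 or fewer, and the remainder, 858 (44.4%) and 534 (21.1%), had 3 to 5. These bounds cut a range, with 542 cycling cells at 2 or 3 UMIs and 433 at 5 or 6. Against the 893 cells with no rule gene the replication median was 1.20, a setting chosen after seeing the data.

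The members differed among themselves in replication RNA. Cycling cells with 6 or more replication UMIs had 739 CPM of Pcna and 125 CPM of Mcm6, and those with 2 or fewer had 256 CPM of Pcna and 42.3 CPM of Mcm6, which are genes of the list that set these bounds. Replication histones, outside that list, had 5491 CPM in the cells with 6 or more and 1483 CPM in those with 2 or fewer. Ccnb1, a rule gene, had 403 and 609 CPM. Mitotic RNA was 21876 CPM in the cells with 6 or more and 25716 CPM in those with 2 or fewer. Across the 1933 cycling cells, replication and mitotic UMIs per 1000 had a Pearson r of -0.20, and across the 2535 other cells 0.46. Both counts come from the same thinned cell, and the cycling cells were chosen by mitotic genes. The cause of these correlations was not tested.

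RNA of the cycle lists was also summed by the number of rule genes in a cell. The rule genes are mitotic, so the rise of mitotic RNA along this axis describes the choice of axis. Median depth also ran from 1714 UMIs at none to 3563 at 8, and an order in time was not tested. Replication RNA was 2029 CPM in cells with no rule gene, stood highest at 6265 and 6325 CPM in cells with 3 and 4, and was 4010 CPM in cells with 8. Replication histones had 364 CPM at none, 4120 CPM at 4 and 2365 CPM at 8. Mitotic RNA was 3962 CPM at none and 29533 CPM at 8, larger at each step. Pcna had its highest value, 649 CPM, at 3 rule genes, and Mcm6, 133 CPM, at 3 as well, while Cdc20, 965 CPM, and Plk1, 203 CPM, had theirs at 8. The cut at 4 thus falls where replication RNA is highest.

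**Figure D4:**
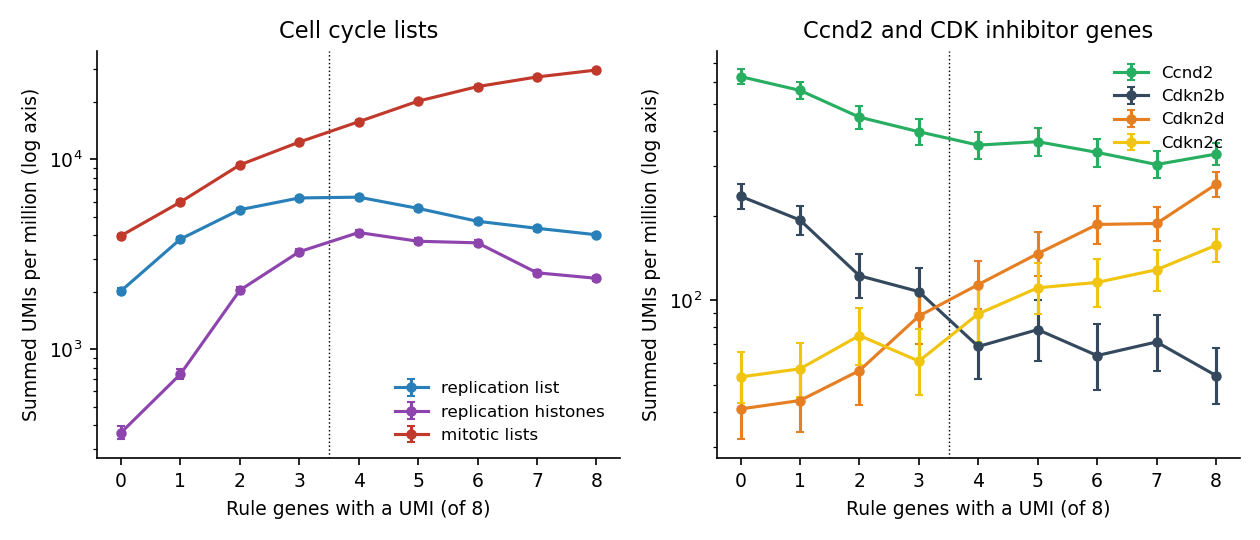
Summed CPM on a log axis (y) by number of the 8 rule genes with a UMI (x), with 95% Poisson intervals and the cut of the rule as a dotted line. Replication RNA stands highest at 3 and 4 rule genes and mitotic RNA at 8, while Cdkn2b and Ccnd2 are lower and Cdkn2d and Cdkn2c higher toward 8.

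Histone and chromatin genes, 21 of 22, were higher in cycling cells, 10 of them at least 2-fold. Of all genes, 36.2% were higher and 2.7% at least 2-fold higher. Hmgb2, a chromatin protein abundant in dividing cells, had 2623 CPM in cycling cells and 777 CPM in the other cells (1.75). H2afx, the histone variant phosphorylated at DNA breaks, had 526 and 147 CPM (1.84). The replication histones Hist1h2ao (1138 and 454 CPM) and Hist1h2ap (983 and 390 CPM) each had a log2 ratio of 1.33. Most histone RNA of this kind has no poly(A) tail and these genes are near copies of each other, so their levels are uncertain.

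Repair and checkpoint genes were higher in 16 of 16 cases, with a median of 0.54 and 2 at least 2-fold. Those 2 were Chek2, a checkpoint kinase, with 32.2 CPM in cycling cells and 9.41 CPM in the other cells (1.78), and Fancd2 of the Fanconi pathway, with 19.02 and 6.86 CPM (1.47). Of all genes, 36.2% were higher and 2.7% at least 2-fold higher, for this list and the next. Of the 21 regulators of cycle transcription 16 were higher, 6 of them at least 2-fold. The subunits of the MuvB complex were among these, with Lin54 at 27.4 and 11.4 CPM (1.27) and Lin9 at 25.6 and 11.96 CPM (1.10), and so were Foxm1 (31.05 and 14.51 CPM, 1.10), Mybl1, E2f5 and E2f8. Mybl2, which encodes B-Myb, had 8.15 and 7.26 CPM (0.17), and E2f1, which drives entry to S phase, had 6.02 and 8.43 CPM (-0.49).

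The CDK inhibitors lay on both sides of 0. Cdkn2d, p19-INK4D, had 187 CPM in cycling cells and 53.3 CPM in the other cells (1.81, interval 1.62 to 2.01), and Cdkn2c, p18-INK4C, had 124 and 60.0 CPM (1.05, interval 0.85 to 1.25). Cdkn2b, p15-INK4B, stood on the other side, with 65.8 and 177 CPM (-1.43, interval -1.61 to -1.25), as did Cdkn1c, p57, with 7.76 and 30.2 CPM (-1.96). The gene of p16-INK4A and p19-ARF, Cdkn2a, had 90.8 and 110 CPM (-0.28), Cdkn1a, p21, had 182 and 224 CPM (-0.30), and Cdkn1b, p27, had 147 and 109 CPM (0.43). The INK4 proteins bind CDK4 and CDK6, and p21, p27 and p57 bind CDK complexes more widely. The p19-ARF protein is not a CDK inhibitor, and UMIs of Cdkn2a were not divided between it and p16-INK4A.

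Along the rule genes, Cdkn2b was 234 CPM in cells with none and 53.9 CPM in cells with all 8, and Cdkn2d was 41.02 CPM in cells with none and 258 CPM in cells with all 8. Thinned to 1000 UMIs, Cdkn2b had a UMI in 5.79% of cycling cells and 14.2% of the other cells, against 3.49% of the cells that failed the second condition. Cdkn2d had one in 15.8% and 5.25%, against 6.16%, so the share of Cdkn2d in the other cells is at the level of those cells. Unthinned, the shares were 12.5% and 22.1%, against 8.83%, for Cdkn2b, and 33.99% and 9.82%, against 15.4%, for Cdkn2d.

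The D cyclins, which pair with CDK4 and CDK6 in G1, were no higher in the members as a group. Ccnd1 was abundant in both, with 2588 CPM in cycling cells and 2878 CPM in the other cells (-0.15). Ccnd2 had 337 and 530 CPM (-0.65, interval -0.74 to -0.57), and Ccnd3 had 177 and 152 CPM (0.22). Cdk4 had 442 and 402 CPM (0.14). Cdk6 had under 20 UMIs in all and was not measured.

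OPC genes were at like levels in cycling and other cells. Of 15 measured genes 4 were higher and 11 lower, none of them 2-fold, with a median of -0.11 beside -0.12 over all genes. Of all genes, 36.2% were higher. Pdgfra had 305 and 284 CPM (0.10, interval 0.00 to 0.21), Olig2 556 and 529 CPM (0.07), Sox10, a factor of the lineage, 142 and 162 CPM (-0.19), and Olig1 1061 and 1215 CPM (-0.20). Cspg4, the NG2 proteoglycan, had 178 and 192 CPM (-0.11). Along the rule genes the OPC sum stayed between 3663 and 4019 CPM. Genes of primitive OPCs, progenitors before the OPC stage, had a median of -0.11 over 11, with Sox4, a transcription factor, at 151 and 298 CPM (-0.98).

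Genes of oligodendrocyte maturation were lower in the members without exception. All 12 myelinating genes were lower, 9 at least 2-fold, with a median of -3.13, and all 10 committed oligodendrocyte genes were lower, with a median of -0.80. Of all genes, 36.2% were higher and 7.12% at least 2-fold lower, with a median of -0.12. Mag, a myelin glycoprotein, had 3.30 CPM in cycling cells and 74.3 CPM in the other cells (-4.49), and Mal had 0.97 and 76.5 CPM (-6.30). Enpp6, of newly formed oligodendrocytes, had 2.13 and 23.3 CPM (-3.45). Bmp4 had no UMI in cycling cells, which allows up to 0.582 CPM, and 5.29 CPM in the other cells. Once cells with 2 or more genes of another cell type or of the myelinating list were left out of both groups, the median was -0.29 over 6 genes, and Mag had a log2 ratio of 0.09. That choice of cells used the same genes, so these values describe the cells kept and test nothing.

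Beside the myelin genes, the smallest ratios were those of Apod, a lipid-binding lipocalin (10.5 CPM in cycling cells and 754 CPM in the other cells, -6.17), Ermn (-4.87), Trf (-4.56), Car2 (-4.03) and Ptgds (-3.90), genes known from mature oligodendrocytes. Ttr, of choroid plexus (-4.35), the protease gene Mmp10 (-2.54) and Acta2, of mural cells (-2.38), were also among them.

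Programmes of the tumour outside the cycle were lower as well. Over all genes, 36.2% were higher in cycling cells and 7.12% at least 2-fold lower. All 22 hypoxia and glycolysis genes were lower in cycling cells, 5 at least 2-fold, with a median of -0.74. Ndrg1, a stress gene, had 10.3 CPM in cycling cells and 57.6 CPM in the other cells (-2.49), the glucose transporter Slc2a1 had 19.8 and 64.1 CPM (-1.70), and Vegfa, the vessel growth factor, had 48.1 and 118 CPM (-1.29). Vegfa was 179 CPM in cells with no rule gene and 54.6 CPM in cells with all 8. Glycolytic enzymes differed less, with Ldha at 866 and 982 CPM (-0.18) and Pgk1 at 363 and 418 CPM (-0.20).

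Mesenchymal glioma genes, the wound-like programme of glioblastoma, were lower in 16 of 18, 9 at least 2-fold, with a median of -0.98. Anxa5, an annexin, had 7.76 CPM in cycling cells and 38.8 CPM in the other cells (-2.32). The abundant members differed little, with Vim at 1229 and 1426 CPM (-0.21) and Lgals1 at 1082 and 1147 CPM (-0.08). Emp1, a membrane protein, was the 1 gene of the list at least 2-fold higher, with 64.6 and 24.9 CPM (1.38).

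Interferon and MHC class I genes were lower in 19 of 20, with a median of -0.57, and Ifitm3 had 24.6 CPM in cycling cells and 66.3 CPM in the other cells (-1.43). Immediate early genes, which respond to stimulation and to tissue digestion, were lower in 13 of 13, with a median of -0.61 and Fos at 97.0 and 187 CPM (-0.95). Astrocyte genes were lower in 13 of 14, with a median of -0.94. Apoe had 113 and 252 CPM (-1.16) and Slc1a3, a glutamate transporter, 136 and 144 CPM (-0.08). These lists share the cells and the denominators of the mitotic lists, so they are not independent of the rule.

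The same rule was applied to the other libraries to set the members beside normal dividing cells. It gave 108 of 430 cells (25.1%, interval 21.1% to 29.5%) at dpi 35, 621 of 3178 (19.5%, 18.2% to 20.96%) in PDGFRa-GFP cortex and 200 of 815 (24.5%, 21.6% to 27.6%) in hGFAP-GFP cortex. Thinned to 1000 UMIs before the rule, 26.8% of dpi 25 cells met it, and 11.9% at dpi 35, 12.2% in PDGFRa-GFP and 11.0% in hGFAP-GFP cortex. At dpi 35 only 7.10% of 6054 cells met the second condition unthinned, and 2592 did so after thinning, so its share depends on which cells the second condition lets in. The assay, the digestion and the sort also differ between the libraries, and no barcode of the dpi 25 library occurs in another.

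Mitotic RNA of cycling tumour cells was also set beside that of cycling cortex cells. The same rule on mitotic genes chose the cells in every library, so the mitotic values describe that choice and test nothing. The median depth of cycling cells was 2449 UMIs at dpi 25, 3694 in PDGFRa-GFP and 6727 in hGFAP-GFP cortex, and depth changes how easily a cell passes. The mitotic lists summed to 24180 CPM at dpi 25, 29751 CPM in PDGFRa-GFP and 25539 CPM in hGFAP-GFP cortex, and to 16677 CPM in the 10x library of dpi 35. Over the 85 genes the median log2 ratio of dpi 25 over cortex was -0.20 for PDGFRa-GFP and 0.03 for hGFAP-GFP. Against PDGFRa-GFP cells 29 of the 85 were higher, where 53.7% of all 11518 measured genes were higher, 17.6% at least 2-fold higher and 13.8% at least 2-fold lower. Against hGFAP-GFP cells 43 were higher, where 55.5% of 11489 genes were higher, 21% at least 2-fold higher and 16.5% at least 2-fold lower. Replication histones were lower in the tumour, with 3145 CPM at dpi 25, 12685 CPM in PDGFRa-GFP and 13912 CPM in hGFAP-GFP cortex, and 8 of 11 were at least 2-fold lower against each.

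Cyclin D genes had unlike levels in cycling cells of tumour and cortex. Ccnd1 had 2588 CPM in the dpi 25 cycling cells, 1469 CPM in those of dpi 35, 116 CPM in PDGFRa-GFP and 93.6 CPM in hGFAP-GFP cycling cells. Ccnd2 ran the other way, with 337 CPM at dpi 25, 741 CPM at dpi 35, 2624 CPM in PDGFRa-GFP and 2947 CPM in hGFAP-GFP cycling cells. Within the cortex libraries Ccnd2 was higher in cycling than in other cells, with 2624 and 1578 CPM in PDGFRa-GFP and 2947 and 1601 CPM in hGFAP-GFP. In the dpi 25 tumour it was lower in cycling cells.

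Cdkn2a and its neighbour Cdkn2b were low in cycling cells of the cortex. Cdkn2a had 90.8 CPM in dpi 25 cycling cells (468 UMIs), against 0.78 CPM in PDGFRa-GFP cells (2 UMIs, log2 ratio 6.86, interval 4.99 to 9.91) and 3.30 CPM in hGFAP-GFP cells. It had 237 CPM in the cycling cells of dpi 35. Cdkn2b had 65.8 CPM, against 2.35 CPM in PDGFRa-GFP and 0.66 CPM in hGFAP-GFP cells (1 UMI, log2 ratio 6.64, interval 4.15 to 11.95). Cdkn2d and Cdkn2c were in cycling cells of every library, with 187, 140 and 77.1 CPM for Cdkn2d and 124, 106 and 102 CPM for Cdkn2c at dpi 25, in PDGFRa-GFP and in hGFAP-GFP cortex. Both were higher in cycling than in other cells in all 4 libraries.

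**Figure D5:**
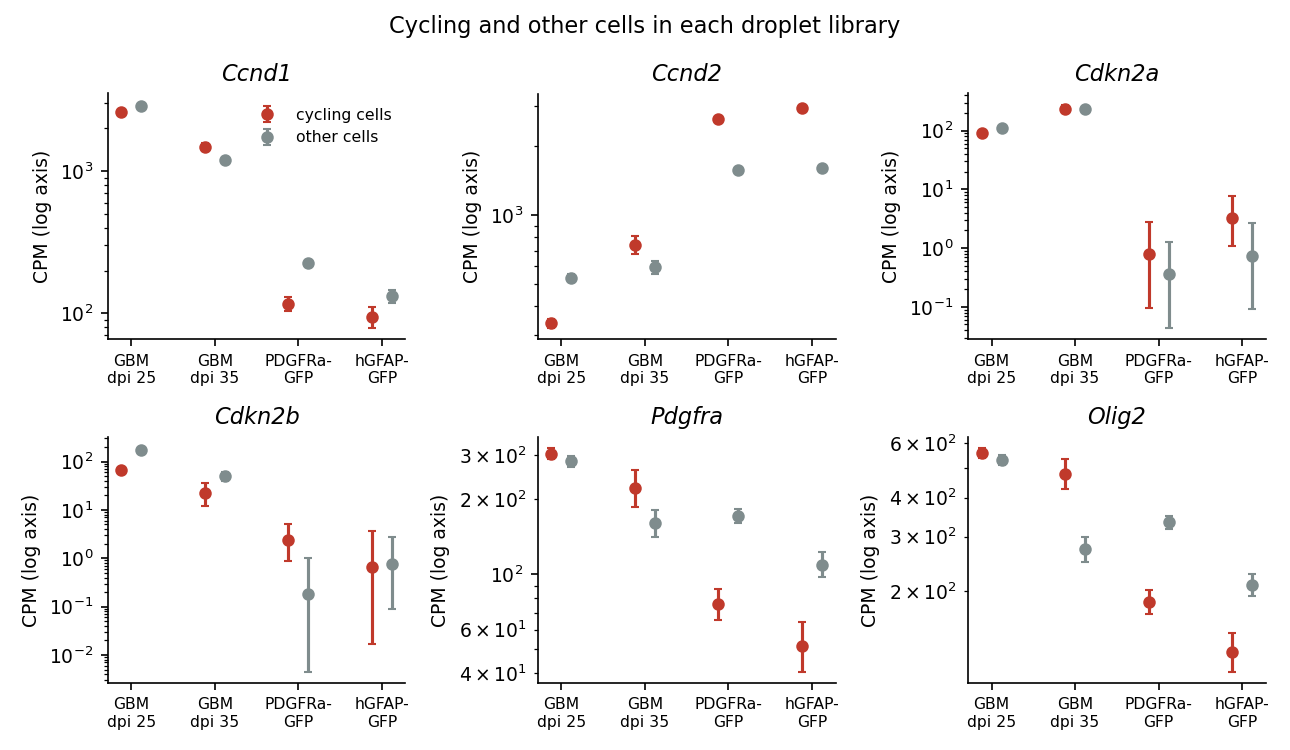
CPM on a log axis (y) of 6 genes in cycling (left point) and other cells (right point) of each droplet library (x), with 95% Poisson intervals. Ccnd1, Cdkn2a and Cdkn2b are high in the tumours and low in cortex, Ccnd2 is the reverse, and Pdgfra and Olig2 are level or higher in cycling tumour cells but lower in cycling cortex cells.

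OPC genes in cycling and other cells were also set beside those of the cortex. In the dpi 25 tumour the OPC list had a median log2 ratio of cycling over other cells of -0.11, and at dpi 35 of 0.21, with 15 of 16 genes higher where 53.4% of all genes were. In PDGFRa-GFP cortex the median was -1.24, with 15 of 15 lower and 10 at least 2-fold, where 31.2% of all genes were higher and 15.6% at least 2-fold lower. In hGFAP-GFP cortex it was -1.33, again with 15 of 15 lower and 10 at least 2-fold, where 34.5% of all genes were higher and 17.4% at least 2-fold lower. Pdgfra had 76.1 and 171 CPM in cycling and other cells of PDGFRa-GFP cortex and 51.4 and 109 CPM in those of hGFAP-GFP cortex. Neuron genes summed to 3931 and 4306 CPM in cycling and other cells of PDGFRa-GFP cortex, and astrocyte genes to 2031 and 8029 CPM in those of hGFAP-GFP cortex, and their part in these medians was not tested. The differences between libraries were not tested either.

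The cortex libraries carried more RNA of neuronal progenitors than the dpi 25 tumour, in cycling and in other cells alike. Dlx1, a factor of interneuron precursors, had 0.58 CPM in dpi 25 cycling cells (3 UMIs), against 814 CPM in PDGFRa-GFP and 599 CPM in hGFAP-GFP cycling cells. Stmn2, of young neurons, had 2.52 CPM, against 1054 and 521 CPM. The primitive OPC list had medians of -2.52 and -2.56 (dpi 25 over PDGFRa-GFP and over hGFAP-GFP), with 9 of 12 genes at least 2-fold lower against each. Of all genes, 13.8% and 16.5% were at least 2-fold lower. Hes5, a Notch target, had 2.52 CPM, against 342 and 84.4 CPM. The neuron list had medians of -4.75 and -3.43 in cycling cells. In the other cells the medians against the same 2 libraries were -3.97 and -3.59 for neuron genes and -2.11 and -2.05 for primitive OPC genes. This difference from cortex is thus not particular to cycling cells.

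The tumour programmes stood above cortex in cycling and in other cells alike. All 22 hypoxia and glycolysis genes were higher than in PDGFRa-GFP cycling cells, 20 of them at least 2-fold (median 2.16), and 21 of 22 were higher than in hGFAP-GFP cycling cells, 20 at least 2-fold (median 1.98). Mesenchymal glioma genes were higher in 12 of 14 (median 2.31) and in 13 of 15 (median 2.38). Of all genes, 53.7% were higher than in PDGFRa-GFP cycling cells, 17.6% at least 2-fold. Against hGFAP-GFP cycling cells 55.5% were higher, 21% at least 2-fold. In the other cells the medians against the same 2 libraries were 2.41 and 1.82 for hypoxia and 3.11 and 2.36 for mesenchymal genes. The difference from cortex is thus not particular to cycling cells. Ldha had 866 CPM in dpi 25 cycling cells, against 107 and 132 CPM. Vim had 1229 CPM, against 283 and 237 CPM, and Cd44, a surface receptor of mesenchymal glioma, 79.0 CPM, against 1.96 and 7.25 CPM. Moxd1, a monooxygenase-like gene, had 200 CPM, against 3.14 and 1.32 CPM, and the chromatin protein gene Hmga2, active in embryonic and tumour tissue, had 82.9 CPM, against 1.57 and 2.64 CPM. Igfbp3, which binds insulin-like growth factors, had 477 CPM, against 1.98 CPM in hGFAP-GFP cells (3 UMIs, log2 ratio 7.91, interval 6.36 to 10.19).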

How the data were processed

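For the Drop-seq libraries the deposited values are a signal in which each cell sums to 10000, with alignment by STAR and the build mm10 named in the submitters' processing notes. Each cell's values are multiples of 1 step, so UMIs were recovered by division, and all cells came out whole within 0.1. For dpi 35 the authors deposited UMI counts, from Cell Ranger per the same notes. The dpi 25 library has 11544233 UMIs, with 1046 to 7681 in a cell.

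UMIs were summed over cells, and ratios of CPM were given exact conditional 95% intervals (scipy 1.17.1, numpy 2.4.6), checked on simulated counts. A gene of a list is measured at 20 summed UMIs. Named genes are the 12 largest and 12 smallest ratios among genes of at least 100 UMIs that reach 50 CPM in 1 of the groups, the 12 largest outside the cycle lists, and list members, without predicted, mitochondrial, ribosomal, haemoglobin and sex-linked genes. Against a count of 0 the floor is 3 UMIs per group. The members and lists were chosen with earlier results of these data known. The C1 cells and open chromatin of the series were not used here.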

Additional observations from a re-analysis of the deposited data

Results flagged for a closer look

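Ccnd2, cyclin D2, had a log2 ratio of cycling over other cells of -0.65 in the dpi 25 tumour (337 and 530 CPM), while both cortex libraries had the opposite sign, with 0.73 in PDGFRa-GFP (2624 and 1578 CPM) and 0.88 in hGFAP-GFP cortex (2947 and 1601 CPM). At dpi 35 the ratio was 0.32 (741 and 592 CPM). Lgals1, galectin 1, had a log2 ratio of -0.084 at dpi 25 (1082 and 1147 CPM), against 1.10 in PDGFRa-GFP (101 and 47.1 CPM) and 0.87 in hGFAP-GFP cortex (56.7 and 30.98 CPM). At dpi 35 its ratio was 0.47 (261 and 189 CPM), the sign of the cortex libraries. The median log2 ratio of all genes at dpi 25 was -0.12, so Lgals1 was close to level with all genes there. Each interval lay on its own side of 0, but with 1 library a group the difference between libraries was not tested.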

How the results depend on the processing

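No paired analysis was possible because each group is 1 library. Medians are log2 ratios of cycling over other cells. At 3 or more rule genes 52.9% of cells were cycling, and the medians were 0.43 for replication, 3.12 for kinases and cyclins, 1.39 for histones and chromatin, 1.56 for replication histones and 2.65 for all mitotic lists. At 5 or more, 34.2% were cycling and the replication median reversed to -0.065. With none of the 11 excluded genes allowed, the mitochondrial median was -0.17 and the erythroid median reversed to -0.43. Without cells of other types 1199 cycling cells remained, with medians of -0.23 for committed and -0.29 for myelinating oligodendrocyte genes, -0.16 for mitochondrial and -0.11 for ribosomal protein genes. That setting reversed the mural list to 0.41 (1 gene left, Acta2, 0.41), Mag to 0.088 and the erythroid list to -0.41, but it removes cells by the myelinating, mural and erythroid genes themselves, so their values test nothing. Without the deepest 5% of cells 41.4% were cycling.

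Of genes with at least 100 UMIs, 249 were at least 2-fold higher (2.88%) and 177 at least 2-fold lower (2.05%). With genes of at least 20 UMIs 871 were lower, at 1.5-fold 471 were higher and 720 lower, thinned 83 were lower, and without cells of other types 48 were lower.

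The next settings were chosen after seeing the data. Against cells with no rule gene 68.4% of cells were cycling, and the medians were 1.20 for replication, 4.31 for kinases and cyclins, 3.85 for spindle, 3.09 for kinetochore, 2.22 for histones and chromatin, 2.37 for replication histones, 1.49 for repair, -1.12 for hypoxia, 0.37 for nucleotide synthesis, 3.76 for all mitotic lists, -0.035 for ribosomal protein and -0.34 for erythroid genes, with 416 genes 2-fold higher and 294 lower. Without other cells of 6 or more replication UMIs, a choice made on replication RNA itself, 52.1% were cycling, and the medians were 1.25 for replication, 3.16 for kinases and cyclins, 2.81 for kinetochore, 1.74 for histones and chromatin, 2.25 for replication histones, 1.45 for repair, -1.003 for hypoxia, 0.34 for nucleotide synthesis and 2.86 for all mitotic lists. Without cells of 20 or more haemoglobin UMIs the erythroid median reversed to -0.54. Thinned before the rule, the shares were 26.8%, 11.9%, 12.2% and 11.0% at dpi 25, at dpi 35 and in PDGFRa-GFP and hGFAP-GFP cortex. The cause of these shifts was not tested. Low genes such as Cdk6 are limited by depth.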

Other observations

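Biosynthesis genes were close to level between cycling and other cells of the dpi 25 tumour, where 36.2% of all genes were higher in cycling cells and the median log2 ratio of all genes was -0.12. Nucleotide synthesis genes had a median log2 ratio of 0.05 over 16, with 10 higher, and cholesterol and fatty acid genes -0.01 over 16, with 8 higher. Mitochondrial genes summed to 58372 CPM in cycling cells and 66431 CPM in the other cells, with 33 of 36 lower and a median of -0.21. Ribosomal protein genes summed to 88384 and 93641 CPM, with 79 of 85 lower and a median of -0.08.

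Most genes of the library were lower in cycling cells, with 36.2% of all genes higher, and counts of lower genes are to be read against that. Targets of p53 were lower in 12 of 15, none 2-fold, with Plk2 at 99.7 CPM in cycling cells and 139 CPM in the other cells (-0.48). Of 12 measured Notch genes 10 were lower. The receptor gene Notch1 was among the 2 higher, with 75.5 and 53.7 CPM (0.49), and the ligand gene Jag1 had 4.27 and 11.4 CPM (-1.41). Among receptor tyrosine kinases 8 of 10 were lower, with Fgfr1 at 47.5 and 64.1 CPM (-0.43) and Egfr at 2.91 and 3.14 CPM (-0.11).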
